A study of Mus musculus with 2 samples.

Results

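Imprinted genes are expressed from the maternal or the paternal copy according to the parent that passed the copy on. The choice is set by control regions, called germline differentially methylated regions (DMRs), that receive DNA methylation in the oocyte or in sperm and keep it on that copy in nearly all tissues of the offspring. The zinc-finger protein ZFP57 binds a short methylated motif in many of them and recruits proteins that maintain the mark, while TET enzymes, among them TET2, oxidise 5-methylcytosine. Several imprinted genes act in fat: *Dlk1* encodes a protein that holds preadipocytes back from differentiation, *Gnas* encodes the G protein that couples receptors to cAMP, *Grb10* limits insulin receptor signalling, and *Mest* is known for its induction when fat expands.

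The data are a list of TET2 peaks, intervals where chromatin collected with an antibody against TET2 gave more sequenced fragments than the input control. Adipocytes were obtained in culture from adipose stem cells of mouse inguinal fat, and 1 library was sequenced after the immunoprecipitation and 1 from the input. The labels give no genotype, strain, age or treatment apart from the adipogenic culture. There was no replicate, so no test was made, and each interval given is an exact 95% interval that covers counting error only and treats genes as separate observations. The list holds no read totals, and the study states its paired-end sequencing only as an amount of data, so the number of mapped fragments behind a peak is not known. A list of peaks also gives no expression level, so the cell type could not be checked against its markers, and it does not separate the parental copies.

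The imprinted genes described are 54 named genes, 47 of them protein-coding and 7 noncoding, out of 30233 autosomal protein-coding and long noncoding genes of the GENCODE M21 annotation of GRCm38. All 54 were found in the annotation. A peak was assigned to a gene when its midpoint lay within 1 kb of any annotated transcription start site (TSS), which is called a promoter peak, or in the gene body, or within 10 kb of the gene. By this rule 35 of the 14103 deposited peaks (0.248%) belonged to imprinted genes: 20 were promoter peaks, 14 lay in a gene body and 1 lay in a flank. A peak is described by its −log10 p, the value that the authors' peak caller gave it against the input, where larger values mark a stronger excess of TET2 fragments. The CpG ratio is the number of CpG sites over the number expected from base composition.

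The DNA under the promoter peaks of genes with an oocyte-methylated germline DMR is shown first, for 1 peak of each of the 5 genes, because many of these peaks hold the motif of ZFP57. The *Gnas* peak shown, near the upstream end where the NESP transcript starts, holds the most matches of the *Gnas* promoter peaks. The other 2 *Gnas* promoter peaks are not shown and hold 1 and 0 matches over the whole peak. The DMR class was given per gene, and the start sites of *Gnas* do not all carry a germline DMR. The *Gnas* stretch is therefore not shown to come from such a region. The motif is not particular to this class, since 6 of the 13 promoter peaks at the other imprinted genes hold it too, among them *Mkrn3* with 3 matches and *Igf2* with 2. The motif letters searched were TGCCGC on either strand, so capitals mark TGCCGC or its reverse complement GCGGCA, and each stretch of 180 bases is written 5′ to 3′ on the strand of its gene. Each stretch is the window of its peak with the most matches among windows free of annotated UTR bases. The stretches were therefore picked for the motif and are not typical of the whole peak. The stretches lie at chr2:152686855-152687034 (+) for *Mcts2*, chr7:128688243-128688422 (+) for *Inpp5f*, chr6:58906768-58906947 (−) for *Nap1l5*, chr15:72809938-72810117 (−) for *Peg13* and chr2:174284769-174284948 (+) for *Gnas*, all on GRCm38. They hold 3, 2, 2, 3 and 2 matches and 19, 14, 20, 16 and 15 CpG sites, respectively.
Mcts2: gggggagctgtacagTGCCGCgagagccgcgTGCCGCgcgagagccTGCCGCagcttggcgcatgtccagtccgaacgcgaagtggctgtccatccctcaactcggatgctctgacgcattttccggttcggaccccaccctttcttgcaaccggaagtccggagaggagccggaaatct
Inpp5f: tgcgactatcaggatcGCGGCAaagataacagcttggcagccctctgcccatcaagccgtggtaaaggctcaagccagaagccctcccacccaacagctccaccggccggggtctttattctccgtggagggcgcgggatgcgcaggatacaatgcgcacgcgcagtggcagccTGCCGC
Nap1l5: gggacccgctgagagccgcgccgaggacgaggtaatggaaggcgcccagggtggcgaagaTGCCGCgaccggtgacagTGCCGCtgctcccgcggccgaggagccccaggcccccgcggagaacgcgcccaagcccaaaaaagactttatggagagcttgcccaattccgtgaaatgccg
Peg13: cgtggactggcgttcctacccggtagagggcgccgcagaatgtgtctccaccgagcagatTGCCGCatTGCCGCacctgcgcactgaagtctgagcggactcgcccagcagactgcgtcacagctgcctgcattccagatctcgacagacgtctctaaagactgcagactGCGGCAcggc
Gnas: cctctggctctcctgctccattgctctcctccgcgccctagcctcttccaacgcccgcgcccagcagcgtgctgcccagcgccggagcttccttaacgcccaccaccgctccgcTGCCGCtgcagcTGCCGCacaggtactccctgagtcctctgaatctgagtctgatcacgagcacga

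A promoter peak was present at 18 of the 54 imprinted genes (33.3%, 21.1 to 47.5%). Among the 30179 other autosomal genes 20.1% had one, but imprinted promoters are richer in CpG, with a median CpG ratio of 0.748 against 0.476. When each imprinted gene was set against other genes in the same group out of 10 groups of CpG ratio, the background share was 32.3%, which corresponds to 17.5 genes. The share at imprinted genes was therefore close to that of other promoters with the same CpG content, and the background share lay inside the interval. None of the 7 imprinted genes with a CpG ratio under 0.4 had a promoter peak, against 2.53% of other genes in that range. Between 0.4 and 0.75 the count was 4 of 20 (20%, 5.73 to 43.7%), against 25.9%. At 0.75 or more it was 14 of 27 (51.9%, 31.9 to 71.3%), against 43.3%.

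Within the imprinted genes, the 18 with a promoter peak had a median CpG ratio of 0.827 and the 36 without one 0.623, and the ranges overlapped widely (0.543 to 0.972 against 0.169 to 1.06). *Grb10* had the highest CpG ratio of all 54 genes, 1.06, and its nearest peak was 62.4 kb from a TSS. *Zdbf2*, with 0.980, was 74.6 kb from its nearest peak. Both were exceptions in the highest of the 10 groups of CpG ratio. There 5 of 7 imprinted genes had a promoter peak, against 45.0% of other genes. At the other end, *Magel2* carried a promoter peak at a CpG ratio of 0.543.

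**Figure D1:**
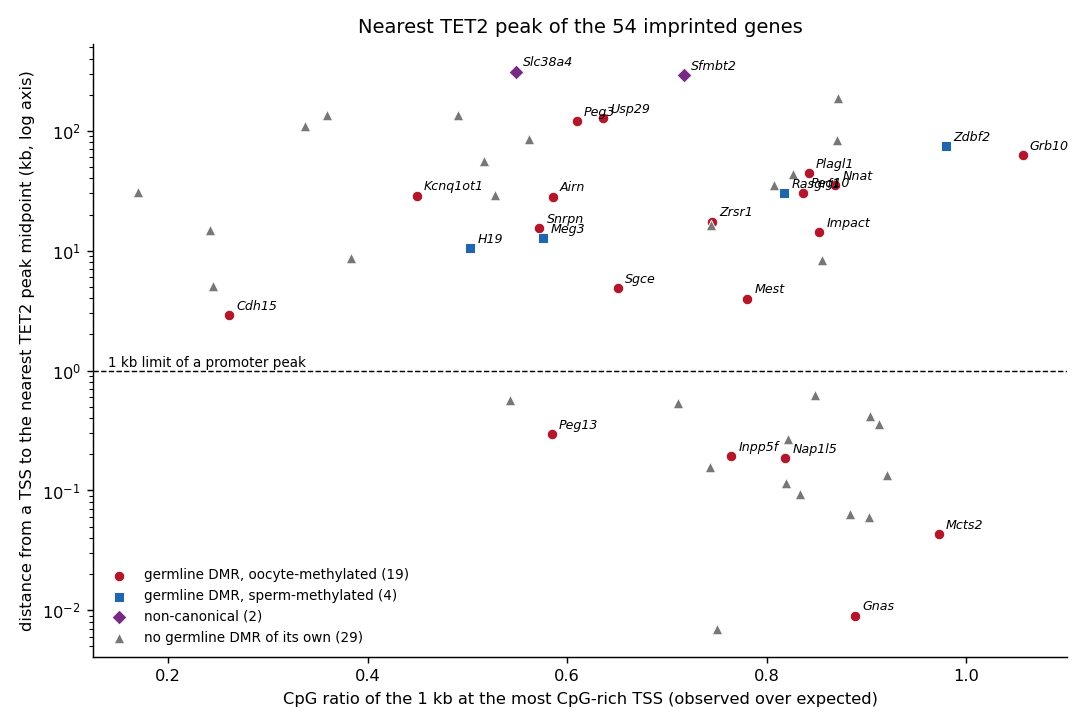
Each of the 54 imprinted genes is placed by the CpG ratio of the 1 kb at its most CpG-rich TSS (horizontal axis) and by the distance in kb from a TSS to the nearest TET2 peak midpoint (vertical log axis), with the germline DMR class as colour and shape. The 18 genes under the dashed 1 kb line all have a CpG ratio of 0.543 or more. The genes with the highest ratios, *Grb10* and *Zdbf2*, stand far above that line. They belong to the highest of the 10 groups of CpG ratio, in which 5 of 7 imprinted genes lie under the line.

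Genes were then grouped by their control region. Of the 19 genes whose promoter or neighbouring control region is a germline DMR methylated in the oocyte, 5 had a promoter peak (26.3%, 9.15 to 51.2%): *Mcts2*, *Inpp5f*, *Nap1l5*, *Peg13* and *Gnas*. Other genes of the same CpG ratio gave 33.8%, or 6.41 genes. None of the 4 genes controlled by a sperm-methylated DMR had one (0 to 60.2%, background 34.1%). The nearest peaks of these 4 genes were 10.4 kb from *H19*, 12.7 kb from *Meg3*, 30.3 kb from *Rasgrf1* and 74.6 kb from *Zdbf2*. *Slc38a4* and *Sfmbt2*, which were listed apart from both germline DMR classes as non-canonical, had no promoter peak (0 of 2, 0 to 84.2%). Other genes of the same CpG ratio gave 27.6%, or 0.551 genes. Their nearest peaks were 310.0 kb from *Slc38a4* and 290.2 kb from *Sfmbt2*. Of the 29 genes with no germline DMR of their own, 13 had a promoter peak (44.8%, 26.4 to 64.3%), against 31.5%, or 9.13 genes. The intervals of the oocyte class and of the genes without a DMR overlapped, and the difference was not tested.

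By the expressed copy, 10 of 28 paternally expressed genes (35.7%, 18.6 to 55.9%) and 7 of 20 maternally expressed genes (35.0%, 15.4 to 59.2%) had a promoter peak. Their CpG-standardised backgrounds were 33.1% and 31.8%. Of the 6 genes whose imprinting depends on tissue or transcript, 1, *Gnas*, had a promoter peak (16.7%, 0.421 to 64.1%), against 30.6%, or 1.84 genes. Among the 7 noncoding genes 1, *Peg13*, had a promoter peak (14.3%, 0.361 to 57.9%), against 17.4%, or 1.22 genes, so the count was close to the background. *H19*, *Meg3*, *Rian*, *Mirg*, *Airn* and *Kcnq1ot1* had none.

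**Figure D2:**
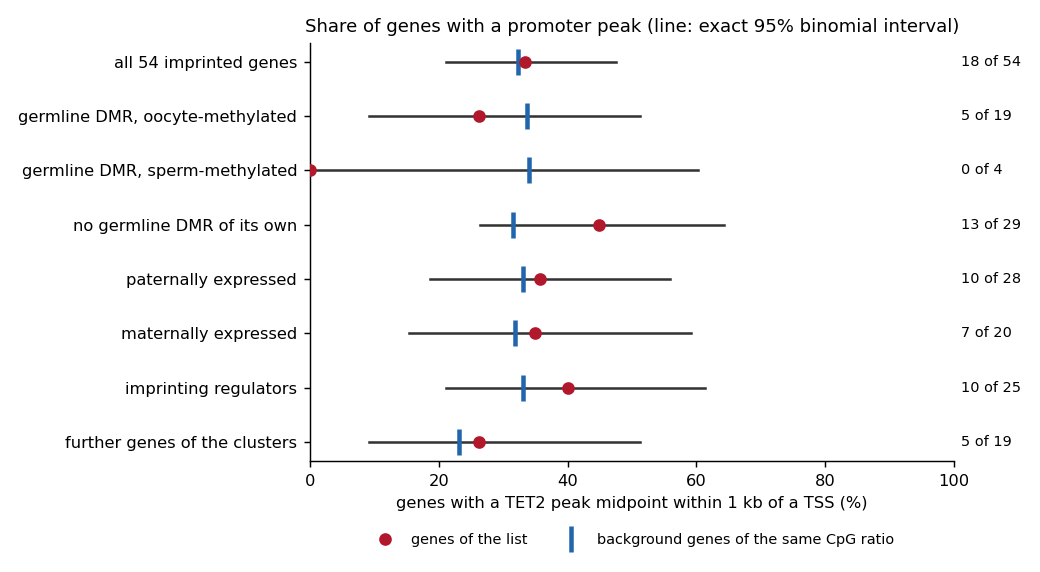
Points give the percentage of genes in each list with a TET2 peak midpoint within 1 kb of a TSS, lines the exact 95% binomial interval, blue marks the share of other genes with the same CpG ratio, and the text at the right the counts. Every blue mark falls inside the line of its list, and all but the oocyte-methylated and sperm-methylated lists have their point at or above the mark.

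The promoter peaks of the 5 genes with an oocyte-methylated DMR lay as follows. *Mcts2*, a retrogene inside an intron of *H13*, had a peak of −log10 p 7.72 at chr2:152686597-152687387, with its midpoint at −43 bp from the TSS. *Inpp5f*, a phosphoinositide phosphatase gene with an imprinted transcript that starts inside an intron, had a peak of 9.82 at chr7:128687993-128688600, at −192.5 bp from such an internal TSS. *Nap1l5*, a retrogene of the nucleosome assembly protein family within an intron of *Herc3*, had a peak of 7.05 at chr6:58906576-58907140, at −185 bp and over coding sequence. A TSS of *Herc3* also lay within 1 kb of it. *Peg13*, a noncoding RNA gene inside an intron of *Trappc9*, had a peak of 6.98 at chr15:72809841-72810215, at +296 bp. The first 4 of these genes thus share a layout: each promoter peak sits at a start site inside an intron. The intron is that of another gene for *Mcts2*, *Nap1l5* and *Peg13* and of *Inpp5f* itself for the remaining one. Nested start sites were not particular to genes with a peak. In the same oocyte class, *Nnat* lies within *Blcap*, *Zrsr1* within *Commd1* and *Kcnq1ot1* within *Kcnq1*, and *Airn* starts within *Igf2r*. None of *Nnat*, *Zrsr1*, *Kcnq1ot1* and *Airn* had a promoter peak.

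*Gnas* had 6 of the 35 peaks, or 72.8 per Mb over its 62.4 kb and 10 kb on each side. Near the upstream end of the gene, where the NESP transcript starts, a peak of 7.74 at chr2:174284602-174285115 lay at −397.5 bp from a TSS, over *Gnas* coding sequence and an exon of the antisense gene *Nespas*. Next to 2 later start sites lay a peak of 5.67 at chr2:174327534-174327908 (−9 bp, in an exon) and a peak of 7.47 at chr2:174328896-174329610 (−753 bp, in a UTR). In the body lay peaks of 7.75 at chr2:174299608-174300405 (2147.5 bp from the nearest TSS, over coding sequence), 8.36 at chr2:174334418-174334884 (4364 bp, intron) and 14.9 at chr2:174346142-174346647 (1744.5 bp, UTR). The last was the largest of all 35 peaks, and 0.889% of the promoter peaks of other genes were larger. Its midpoint also lay 317.5 bp from a TSS of the overlapping gene *Gm20721*. The DMR class was given per gene, and the start sites of *Gnas* do not all carry a germline DMR.

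Among the growth and cell cycle genes without a DMR of their own, *Igf2*, the fetal growth factor, had a peak of 8.21 at chr7:142660607-142661267, +268 bp from a TSS. *Igf2r*, the receptor that clears IGF2, had a peak of 7.37 at chr17:12769148-12770059, at +60.5 bp. At 912 bp it was the longest of the promoter peaks, and it also lay in an intron of the antisense RNA gene *Airn*. *Cdkn1c*, an inhibitor of cyclin-dependent kinases, had a peak of 7.66 at chr7:143458606-143459183, at +416.5 bp. *Cd81*, a tetraspanin of the cell membrane, had the largest promoter peak, 11.2 at chr7:143052605-143053295, at +156 bp, where the gene *R74862* also has a TSS within 1 kb. Promoter peaks were common at such CpG ratios: in the groups that hold *Igf2*, *Igf2r* and *Cdkn1c* 43.8 to 45.0% of other genes had one, and 39.5% in the group of *Cd81*. The group was set by the most CpG-rich TSS of each gene. For *Igf2* (chr7:142659489) and *Cdkn1c* (chr7:143460996) that TSS had no peak within 1 kb, and the peak lay at another TSS. Other growth regulators had none, among them *Phlda2*, which restrains placental growth and had its nearest peak 43.6 kb away, *Grb10*, and the zinc-finger gene *Plagl1*, 44.5 kb from its nearest peak.

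The 2 potassium channel genes came next in size. *Kcnq1*, a voltage-gated channel, had a peak of 10.7 at chr7:143107050-143107472, +7 bp from a TSS, and 3 body peaks in introns of 7.20, 10.1 and 5.13. These body peaks were 216004, 220438 and 299826 bp from the nearest TSS of *Kcnq1*. The peaks of 7.20 and 10.1 lay 5452 and 1018.5 bp from a TSS of the overlapping gene *4933417O13Rik*. *Kcnk9*, a background potassium channel, had a peak of 9.84 at chr15:72546470-72546920, at −355 bp in intergenic sequence with a CpG ratio of 1.06, and a body peak of 5.91. Both genes are maternally expressed and had a promoter peak, whereas the antisense RNA *Kcnq1ot1*, whose promoter is the germline DMR inside *Kcnq1*, was 28.6 kb from its nearest peak. Their CpG content differed: 39.5% of other genes in the CpG group of *Kcnq1* had a promoter peak and 45.0% in that of *Kcnk9*. In the group of *Kcnq1ot1* the share was 9.05%.

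In the *Dlk1* to *Dio3* cluster, *Dlk1* had a peak of 7.34 at chr12:109459723-109460150, +93.5 bp from a TSS and over coding sequence. That TSS, at chr12:109459843, lies inside the gene. The CpG group of *Dlk1* was set by another TSS, at chr12:109453535, which had no peak within 1 kb. *Dio3*, a deiodinase that inactivates thyroid hormone, had one of 7.52 at chr12:110278882-110279511, at −63.5 bp. *Rtl1*, a gene derived from a retrotransposon, had a body peak of 8.36 at chr12:109595104-109595478 over its coding sequence. That peak lay −36 bp from *Mir136*, within 1 kb of *Mir3071*, *Mir432* and *Mir434*, which are encoded at the same place. *Dlk1* and *Dio3*, at the ends of the cluster, had the promoter peaks, and *Meg3*, *Rtl1*, *Rian* and *Mirg* between them had none. Their CpG content differed as well: 43.8% of other genes in the CpG group of *Dlk1* and *Dio3* had a promoter peak, 23.7% in that of *Meg3*, 9.05% in that of *Rian* and *Mirg*, and 1.86% in that of *Rtl1*.

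The neighbours *Magel2*, *Mkrn3* and *Peg12* had peaks further into the gene. *Magel2*, a partner of ubiquitin ligases, had one of 7.98 at chr7:62377315-62377845, +570 bp from its TSS. *Mkrn3*, a ubiquitin ligase gene tied to the timing of puberty, had one of 7.21 at chr7:62419191-62420024, at +531.5 bp. *Peg12* had one of 7.21 at chr7:62463550-62464209, at +630.5 bp. All 3 lay over coding sequence, and *Ndn*, the fourth member of the group, had a CpG ratio of 0.169 and its nearest peak 31.0 kb away. Their CpG content differed: 1.29% of other genes in the CpG group of *Ndn* had a promoter peak. The share was 23.7% in that of *Magel2*, 31.4% in that of *Mkrn3* and 43.8% in that of *Peg12*. With a limit of 500 bp these 3 genes would not count as having a promoter peak. *Ube3a*, a ubiquitin ligase gene on the same chromosome, had a peak of 7.98 at chr7:59228649-59229264, at +134.5 bp, and *H13*, a signal peptide peptidase gene, one of 8.51 at chr2:152669435-152669863, at +115 bp. In their CpG groups 45.0% and 43.8% of other genes had a promoter peak. With RefSeq in place of GENCODE start sites, *Cdkn1c*, *Dlk1* and *Kcnk9* lost their promoter peak and 15 genes remained.

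**Figure D3:**
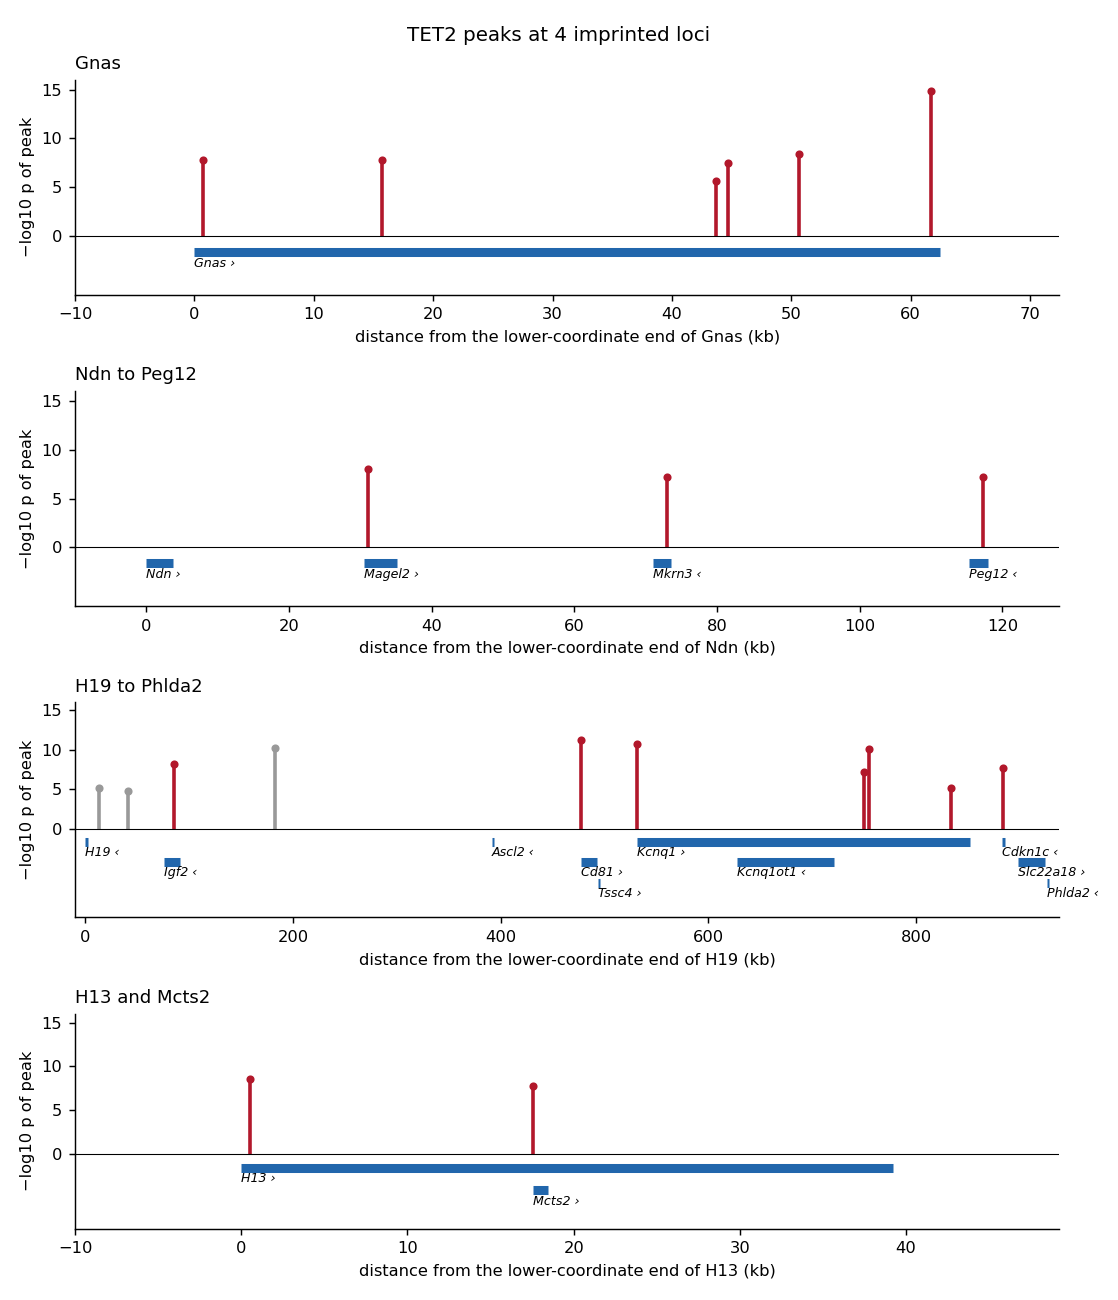
Stems mark TET2 peak midpoints at 4 imprinted loci, with height showing the deposited −log10 p and the horizontal axis the distance in kb from the lower-coordinate end of the gene named under each panel. Red peaks were assigned to imprinted genes, grey ones were not, blue bars are the genes, and arrowheads give their strand. *Gnas* holds 6 peaks and the largest, 14.9, is at the far end of the gene. *Ndn* stands without a peak beside 3 neighbours that each have 1. In the group of CpG ratio that holds *Ndn*, 1.29% of other genes have a promoter peak.

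The 20 promoter peaks had −log10 p values between 5.67 and 11.2, and the median was 7.69. The 5285 promoter peaks of other genes had a median of 6.83, quartiles of 5.68 and 8.36, and reached 335.2. Of the imprinted promoter peaks none was under 5, and their median length was 593 bp against 466 bp. Their CpG ratio, with a median of 0.808, was close to the 0.785 of other promoter peaks. Midpoints lay downstream of the nearest TSS in 12 of 20, with a median of +77 bp. The 14 body peaks were lower, with a median of 6.42 (4.12 to 14.9) and a median CpG ratio of 0.302. The 8508 other autosomal peaks away from promoters were alike, with medians of 6.21 and 0.357. One body peak, in an intron of *Sgce* (5.13), was 83.2% repeat sequence, and both of those under 5 were in introns of *Trappc9* (4.12 each). No promoter peak was over 21.5% repeat. Different peaks can hold the same −log10 p, such as the 8.36 at both *Gnas* and *Rtl1*.

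**Figure D4:**
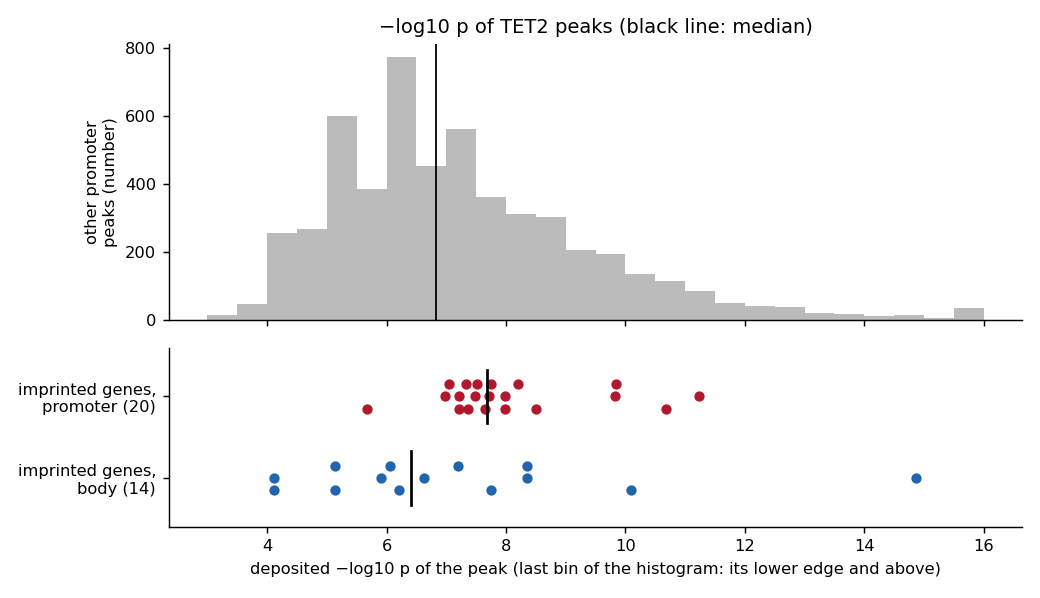
The upper panel counts promoter peaks of other genes by their deposited −log10 p, with the largest values gathered in the last bin, and the lower panel shows each of the 20 promoter and 14 body peaks of imprinted genes as a point, with black lines at the medians. The promoter peaks of imprinted genes gather around 7.69 inside the bulk of the upper distribution, and the body peak of 14.9 at *Gnas* lies in its upper tail.

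The limit of 1 kb divided the start sites as follows. Just inside it were the peaks of *Peg12* at 630.5 bp and of *Gnas* at −753 bp, and just outside it those of *Gnas* at 1744.5 and 2147.5 bp and that of *Cdh15*, a cadherin gene, at 2882 bp. *Cdh15*, whose germline DMR lies inside the gene, had a peak of 6.62 in an intron and one of 6.05 at chr8:122865015-122865389 over coding sequence with a CpG ratio of 0.595. *Mest* had a body peak of 6.21, 3964 bp from the nearest TSS in an intron. The single flank peak, of 7.63 and −8298.5 bp from *Commd1*, sat 28.5 bp from a TSS of the chaperonin gene *Cct4*.

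Counting the gene and 10 kb on each side, 26 of 54 imprinted genes had a peak (48.1%, 34.3 to 62.2%), against 40.7% of other genes. Imprinted genes are longer, with a median of 28633 bp against 13326 bp. Per Mb of these regions the density was 8.42 peaks (5.86 to 11.7) for imprinted genes and 7.51 for other genes, so the background again lay inside the interval.

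The imprinted clusters held different numbers of peaks, and they differ in length and CpG content. The group from *H19* to *Phlda2*, 10 genes in 927.6 kb, held 10 peaks, 7 of them assigned to imprinted genes. With 10 kb on each side this was 10.6 peaks per Mb, against 7.51 for other genes. Of its genes 4 had a promoter peak. In the CpG groups of the 10 genes, 1.86 to 45.0% of other genes had one. *Ascl2*, *Tssc4* and *Slc22a18*, between *H19* and *Phlda2*, had their nearest peaks 83.7, 16.3 and 14.8 kb away. *Kcnk9*, *Peg13* and *Trappc9* held 5 peaks between them, and *H13* with *Mcts2* held 2 in 39.2 kb. No peak lay in or within 10 kb of *Zim1*, *Peg3* and *Usp29*, which span 296.0 kb, nor of *Blcap* and *Nnat*, *Ddc* and *Grb10*, *Plagl1*, *Impact*, *Rasgrf1*, *Zdbf2*, *Slc38a4* or *Sfmbt2*. These genes and groups span 14.9 kb (*Blcap* and *Nnat*) to 296.0 kb, and at 7.51 peaks per Mb spans this short would hold few peaks. *Peg3*, a zinc-finger gene, was 120.0 kb from its nearest peak. Of the genes in between, *Calcr*, *Peg10*, *Ppp1r9a* and *Asb4* were 30.4 to 186.0 kb from a peak, and *Snrpn* and *Zrsr1* were -15463 and 17452.5 bp from one. Neighbours that share a control region (*Peg3* and *Usp29*, *Peg10* and *Sgce*, *Igf2r* and *Airn*) are not separate observations of it.

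The control region between *H19* and *Igf2* is the one that the RefSeq annotation delimits on GRCm38, at chr7:142580248-142582833, 2105 to 4690 bp upstream of the *H19* TSS. It is methylated in sperm, and on the maternal copy the insulator protein CTCF binds it and keeps enhancers from *Igf2*. No TET2 peak overlapped its 2586 bp, which hold 66 CpG sites at a CpG ratio of 0.412 and 49.8% GC. The next peaks were 5.556 kb away on the *Igf2* side and 146.2 kb away on the other. The former, of −log10 p 5.13 at chr7:142588389-142588763, covered all 194 bp of the annotated HUC1 enhancer at chr7:142588473-142588666. It lay −10433 bp from the *H19* TSS, just beyond the 10 kb limit, and the other 10 annotated enhancer elements around *H19* had no peak. The annotated CTCF sites of the region are given because the peak list can be compared with them directly, on the strand of *H19* and with the core GGNGGCA in capitals. They lie at chr7:142580301-142580347 (m4), chr7:142580756-142580803 (m3), chr7:142581782-142581826 (m2) and chr7:142582026-142582073 (m1).
m4: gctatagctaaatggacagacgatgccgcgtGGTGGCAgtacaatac
m3: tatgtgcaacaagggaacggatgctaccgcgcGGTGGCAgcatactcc
m2: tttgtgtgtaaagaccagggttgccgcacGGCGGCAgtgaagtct
m1: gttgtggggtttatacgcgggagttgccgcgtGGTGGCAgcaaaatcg

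Sites m4, m2 and m1 also read tgccgc shortly before the core, and the whole region holds 5 matches of this ZFP57 motif and no GGGCGG. The narrower core GGCGGCA occurs in m2 alone. Within 200 bp each side of the midpoint, GGCGGCA was found in 3 of the 20 imprinted promoter peaks (15%, 3.21 to 37.9%) and in 17.3% of other promoter peaks. GGNGGCA was found in 35.0% and 42.9%. Every GGCGGCA contains GCGGCA, so each match of the narrower core is also a match of the ZFP57 motif. Away from promoters GGCGGCA was found in none of 15 imprinted peaks (0 to 21.8%), against 5.67%.

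The ZFP57 motif TGCCGC was found in 11 of the 20 imprinted promoter peaks (55.0%, 31.5 to 76.9%) and in 35.7% of other promoter peaks, in the same windows on either strand. The SP1 motif GGGCGG was found in 13 of 20 (65.0%, 40.8 to 84.6%) and in 67.0%. Away from promoters TGCCGC was found in 2 of 15 (13.3%) and in 12.6% of other peaks. The interval for TGCCGC at imprinted promoter peaks held the background share, so the excess was within counting error.

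Over the whole peak, the motifs divided by control region, a pattern that was noticed after the values were seen and is given as a description. Of the 7 promoter peaks at genes with an oocyte-methylated DMR, 6 held TGCCGC, with 17 matches in all and a median of 3, and 1 held GGGCGG. *Inpp5f* and *Nap1l5* had 4 matches of TGCCGC each, *Mcts2* and *Peg13* had 3, and none of these 4 peaks held GGGCGG. Of the 13 peaks at the other imprinted genes, 12 held GGGCGG, with 36 matches and a median of 3, and 6 held TGCCGC, with 9 matches and a median of 0. *Igf2r* had 7 matches of GGGCGG and *Kcnq1* had 5. Among promoter peaks of other genes 40.8% held TGCCGC and 71.5% held GGGCGG. Those peaks were shorter, with a median length of 466 bp against 593 bp at imprinted genes, and the shares were not matched for length. Of the 7 peaks, 3 belong to *Gnas*, whose start sites do not all carry a germline DMR. The last 4 letters of GGGCGG are the first 4 of GCGGCA, so matches of these motifs can overlap. GC content also differed, with 52.5% at *Mcts2*, 58.1% at *Peg13*, 61.7% at *Inpp5f* and 61.9% at *Nap1l5*. The *Gnas* peaks had 64.0 to 66.1%. The 13 other peaks had 63.7 to 74.1%, except *Cdkn1c* with 49.7%, which held 1 match of GGGCGG. *Kcnk9*, with 74.1%, held none. Whether GC content accounts for the division of the motifs was not tested.

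**Figure D5:**
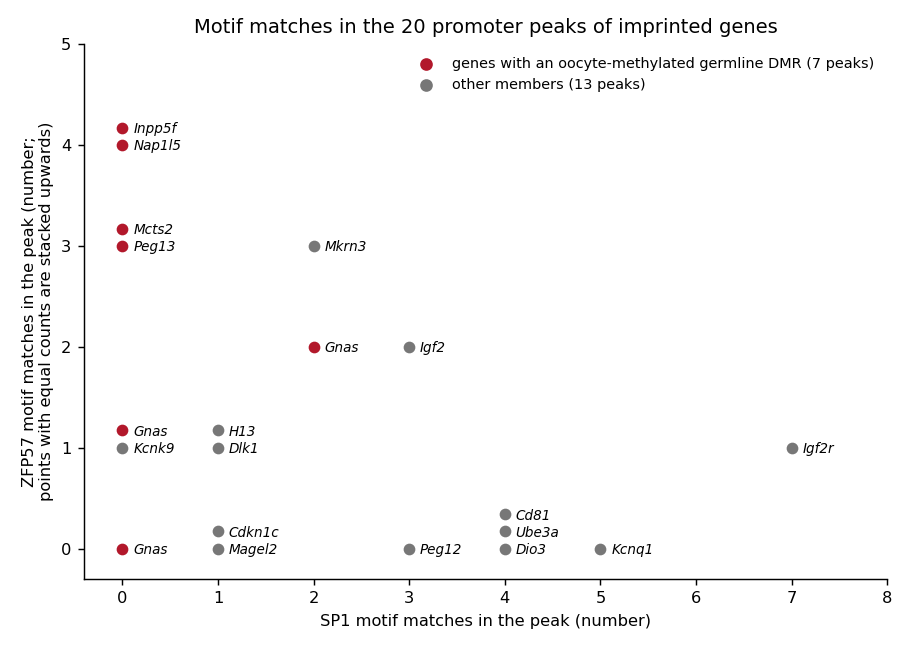
Each point is one of the 20 promoter peaks of imprinted genes, placed by the number of SP1 motif matches (horizontal axis) and ZFP57 motif matches (vertical axis, equal counts stacked upwards) in the whole peak. The peaks at genes with an oocyte-methylated germline DMR (red) lie along the left edge with up to 4 ZFP57 matches, except 1 at *Gnas* with 2 of each motif, while 12 of the 13 others (grey) have at least 1 SP1 match.

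The ZFP57 motif was common at these promoters with and without a peak. In the 1 kb at the most CpG-rich TSS, TGCCGC occurred in 33.0% of other genes, in 51.5% of those with a CpG ratio of 0.4 or more, and in 30 of the 54 imprinted genes (55.6%). Of the 19 genes with an oocyte-methylated DMR 15 held it (78.9%): all 5 with a promoter peak and 10 of the 14 without one (71.4%). *Mest* had the most, 10 matches, with no promoter peak, and *Nnat* had 6. The upstream sequence of these 2 genes is given for comparison with the peaks above, as the 250 bases before a RefSeq start site on GRCm38 at chr6:30737800-30738049 (+) and chr2:157559828-157560077 (+), again with TGCCGC or GCGGCA in capitals. *Mest* holds 2 matches and 14 CpG sites in this stretch, and *Nnat* 0 matches and 12 CpG sites. Among the RefSeq start sites of each gene, that with the most matches was taken.
Mest: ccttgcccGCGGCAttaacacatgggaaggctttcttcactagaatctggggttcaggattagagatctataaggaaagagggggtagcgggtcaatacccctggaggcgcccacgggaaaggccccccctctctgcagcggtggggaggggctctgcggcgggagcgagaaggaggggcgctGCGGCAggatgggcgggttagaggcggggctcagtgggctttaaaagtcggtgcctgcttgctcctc
Nnat: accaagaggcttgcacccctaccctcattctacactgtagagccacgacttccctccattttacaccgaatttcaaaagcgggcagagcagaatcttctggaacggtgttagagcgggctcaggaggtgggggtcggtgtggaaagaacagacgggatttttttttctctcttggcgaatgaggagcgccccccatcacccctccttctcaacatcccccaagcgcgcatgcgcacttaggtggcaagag

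RefSeq promoter sequences of 300 bases were matched by symbol for 44 of the imprinted genes, with 66 sequences. TGCCGC occurred in 14 of these (21.2%), against 11.6% of all 32851 promoters in the table. That comparison was not matched for CpG content, in which the imprinted promoters are richer, and some genes gave several sequences. A match says only that the letters are in the window.

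Of 25 genes listed as imprinting regulators, the TET genes among them, 10 had a promoter peak (40%, 21.1 to 61.3%), against 33.0% of other genes with the same CpG ratio. Those with a peak were *Zfp57* (−log10 p 6.21) and its partner *Trim28* (6.76), the methyltransferase gene *Dnmt3b* (7.53), the maintenance factor *Uhrf1* (6.24), the dioxygenase gene *Tet3* (6.04), the histone modifier genes *Ehmt2* (6.24), *Kdm1b* (5.65) and *Eed* (8.51), *Arid4b* (6.26) and *Smchd1* (10.4), which acts in X inactivation and at some imprinted clusters. *Dnmt1*, *Ctcf*, *Zfp445*, *Setdb1*, *Tet1* and *Tet2* had none. *Dnmt3a* fell just outside the limit, with a peak of 10.5 at 1106.5 bp from a TSS. Of 19 further genes in or beside the imprinted clusters, 5 had a promoter peak (26.3%, background 23.1%): *Casd1*, *Klf14*, *Nap1l4*, *Osbpl5* and *Slc22a2*.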

How the data were processed

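Adipocytes differentiated in culture from inguinal adipose stem cells gave 1 TET2 ChIP library and 1 input library. The input by itself was not analysed. The authors trimmed reads with NGS QC Toolkit, aligned them with bowtie1 and called peaks against the input with MACS2 (version 2.1.0 in the submitters' processing notes). The deposited list gives each peak's interval and its −log10 p, the authors' value, which was used as it stands to describe and filter peaks. The methods name GRCm39 and the processing notes mm10, which is GRCm38. All positions are given on GRCm38, and none was converted. The paired-end sequencing is described by its amount of data, and the reads per library are not given in the sources used here.

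Peaks were placed by their midpoint against GENCODE M21 start sites. The background was the 30179 autosomal protein-coding and long noncoding genes outside the list. The CpG ratio was taken over the 1 kb centred on each gene's most CpG-rich TSS, and the background share was averaged over the imprinted genes within 10 equal groups of CpG ratio. The 95% intervals are exact, binomial for shares and Poisson for densities, and hold for counting error alone. With 1 library no test was made. Control regions other than that of *H19* and *Igf2* were represented by the promoters of their genes.

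The imprinted genes, their classes by control region and expressed copy, the regulator and cluster lists and the motifs were chosen with earlier results of these data known. One of the 20 cluster genes, *Zfp264*, was not matched by symbol. Genes named were every imprinted gene with a promoter peak, every gene of the DMR lists, the 10 peaks with the largest −log10 p and the promoters at the 1 kb limit. Others were named to account for all 54. Alternatives were other distances, start sites, peak thresholds, groupings, backgrounds and motif windows, and the wider core GGNGGCA, which was added after seeing the data. The placement step was tested on simulated data. Sequences were read with samtools 1.23.1 and pysam 0.24.0, statistics were computed with scipy 1.17.1, numpy 2.4.6 and pandas 2.3.3, and figures were drawn with matplotlib 3.10.9 in Python 3.11.15.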

Additional observations from a re-analysis of the deposited data

How the results depend on the processing

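No paired analysis was possible because there was 1 TET2 library and no replicate. The count of imprinted genes with a promoter peak, 18, was 15 within 500 bp and with RefSeq start sites, 18 within 2 kb and 19 within 3 kb, where *Cdh15* was gained. The CpG-standardised background share of 32.3% moved to 28.4% within 500 bp, 35.0% within 2 kb, 36.5% within 3 kb, 33.3% with any base of the peak within 1 kb, 29.4% with RefSeq start sites and 29.1% with peaks of −log10 p at least 5. It was 31.1% with 5 groups, 29% with groups of GC content, 35.1% for protein-coding genes (17 of 47, 36.2%) and 19.4% with each distinct TSS as the unit (51 of 312, 16.3%). With the TSS as the unit the share at imprinted genes was below the background, and the cause was not tested. Within 100 bp each side of the midpoint the motif shares in imprinted promoter peaks were 25% for TGCCGC, 35.0% for GGGCGG and 0% for GGCGGCA, against 21.2%, 46.5% and 9.82% in other promoter peaks, in a window of fewer bases. Of 45 alternatives 32 left their value within its own error or, for counts, within 1.5 times. The number of mapped fragments is not known, so the lack of a peak does not show that TET2 was absent.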
